A study of Mus musculus with 6 samples.

Results

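The 50 genes described here are the mouse genes named Psma, Psmb, Psmc, Psmd, Psme, Psmf or Psmg with a number, the naming series of the proteasome. They were taken by symbol from the 24984 gene rows of each count table, so no measured value entered the choice. There are 8 Psma genes (alpha ring of the core particle), 11 Psmb genes (beta ring), 7 Psmc genes (ATPase ring), 14 Psmd genes (lid, base and base chaperones), 5 Psme genes (activators) and 5 Psmf or Psmg genes (a regulator and assembly chaperones). Of these, 46 had enough counts to be tested. Psmc3ip is in the set through its name alone: its protein is a partner of the meiotic recombinases and is not known as a proteasome subunit.

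The 6 libraries came from mouse E14TG2a embryonic stem cells, an established line, grown in N2B27 medium. The knockout (KO) had METTL3 disrupted with CRISPR/Cas9, and the D395A line had this amino acid change put into METTL3 with CRISPR/Cas9 and homology-mediated end joining. Unedited cells (WT) were the control, and each of the 3 groups had 2 libraries of total RNA depleted of ribosomal RNA. METTL3 is the methyltransferase that puts m6A (N6-methyladenosine) on RNA, and the D395A change lies in its catalytic motif. The study was set up to ask how m6A and circular RNA interact. The labels do not say whether the libraries of a group are separate cultures or whether each edited line is 1 clone, so a p-value here speaks of the spread among these libraries alone, which may be technical, and genotype and the history of a line cannot be told apart.

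The proteasome is the protease that breaks down proteins tagged with ubiquitin. Its core is a barrel of stacked rings, in which alpha subunits gate the entry and beta subunits cut. A regulatory particle docks on the barrel: its ATPase ring unfolds the substrate, its base and lid bind ubiquitin chains, and a lid enzyme removes them. Dedicated chaperones put the rings together, and alternative activators can replace the regulatory particle. In mammals, much of this gene family is known to be switched on together by the transcription factor encoded by Nfe2l1 (called NRF1 here, and not the product of the gene Nrf1) when proteasome activity falls. Human embryonic stem cells are known for high proteasome activity.

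The libraries held 22859491 to 40476809 counts in genes, and the proteasome genes took 0.418% and 0.437% of them in KO, 0.413% and 0.397% in D395A, and 0.623% and 0.604% in WT. Levels are given as CPM, gene counts scaled to a common library size with TMM factors. Mettl3, on chromosome 14, had 7.82 and 6.17 CPM in KO, 21.1 and 23.4 CPM in D395A, and 28.5 and 31.6 CPM in WT and was thus lowest in the line labelled as its knockout, while the level of the RNA is no check of an amino acid change. Exons of Tox4 overlap 18.4% of its exon bases on the opposite strand. A large share of the 15663 genes tested differed between the lines, and these shares are given beside the counts of proteasome genes. The ribosomal precursor Rn45s took 13.9% to 16.7% of gene counts in the edited lines and 10.8% to 11.2% in WT. Genes of chromosomes 8 and 11 were lower as a whole in both edited lines, with median log2 fold changes of -0.48 and -0.42 in KO and -0.35 and -0.49 in D395A, against 0.01 in KO and 0.02 in D395A over all genes. The summed level of 8 embryonic stem cell markers was 4808 and 4782 CPM in KO, 1921 and 1984 CPM in D395A, and 4060 and 4117 CPM in WT. These markers did not move together in KO: Nanog was above WT, Sox2 overlapped it, and Zfp42 and Tdgf1 were below it. In D395A, Sox2 overlapped WT and the other markers of this list were below it. Markers of other cell types summed to less: 8 fibroblast genes lay between 11.54 and 28.2 CPM and 8 neural genes between 58.1 and 96.0 CPM over the 6 libraries. The neural genes did not move together in D395A. There Pax6 (10.6 and 11.3 CPM, against 1.18 and 1.41 in WT), Sox1, Map2, Dcx and Neurod1 were above WT. Tubb3 (17.3 and 17.6 CPM, against 45.8 and 42.8 in WT), Nes and Elavl3 were below it. The 8 haematopoietic genes summed to 142 and 158 CPM in KO, 61.4 and 71.8 CPM in D395A, and 62.3 and 57.9 CPM in WT, with Hba-a1 at 0 in every library. Laptm5 alone made up most of this sum. It had 137 and 153 CPM in KO, 54.5 and 65.2 CPM in D395A, and 54.2 and 51.1 CPM in WT. Extraembryonic endoderm genes summed to 4.52 and 5.85 CPM in KO, 26.9 and 27.6 CPM in D395A, and 9.59 and 8.90 CPM in WT. Foxa2 alone made up most of the D395A sum, at 20.2 and 22.5 CPM, while Gata4 and Gata6 were lower in D395A than in WT. The part that these differences have in the proteasome results was not tested, except where a value is given below.

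Most proteasome genes were lower in both edited lines than in WT. Summed over the 50 genes, the level was 4260 and 4485 CPM in KO, 4023 and 3941 CPM in D395A, and 6196 and 6020 CPM in WT. The sums of the edited lines lay below both WT libraries, at 0.716 times the WT mean in KO and 0.652 times in D395A. In these bulk libraries a lower level per cell and fewer cells with the RNA cannot be told apart. By class, the summed level of the alpha genes was 0.854 times that of WT in KO and 0.847 times in D395A, whereas that of the ATPase genes was 0.610 times in KO and 0.624 times in D395A.

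**Figure D1:**
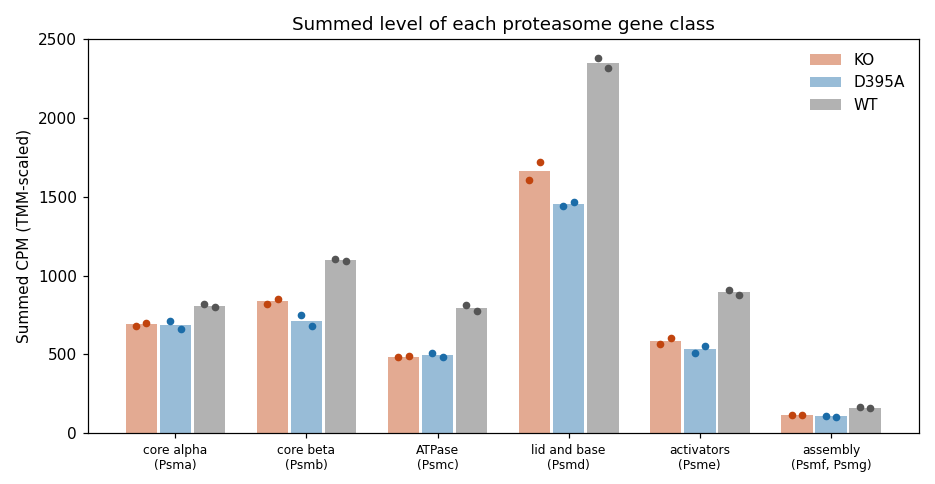
Summed level of each proteasome gene class. The vertical axis is summed CPM from 0, bars are means of 2 libraries, points are the libraries, and the groups are KO, D395A and WT. In all 6 classes both edited lines lie below WT, least so for the alpha genes; heights of different classes are not comparable, since their numbers of genes and lengths differ.

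Against WT, 33 of the 46 tested proteasome genes were called lower in KO (71.7%), where 32.6% of all genes tested were called lower and 66.2% were called in either direction. Another 4 were called higher (8.70%, against 33.6% of all genes) and 9 passed in neither direction. The call is an adjusted p below 0.05 in edgeR's quasi-likelihood test with Benjamini-Hochberg adjustment over all genes. The median log2 fold change was -0.52 over the 46 genes and 0.01 over all genes. In D395A, 34 were called lower than in WT (73.9%, against 34.0% of all genes, of which 70.3% were called in either direction), 4 higher (8.70%, against 36.3%) and 8 in neither direction, with a median of -0.54 against 0.02 over all genes. Both comparisons use the same WT libraries, so they are not independent of each other. Of the 31 genes of this naming series that encode subunits of the constitutive core, ATPase ring, base and lid, 26 were called lower in KO and 26 in D395A, 1 was called higher in KO and 0 in D395A.

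**Figure D2:**
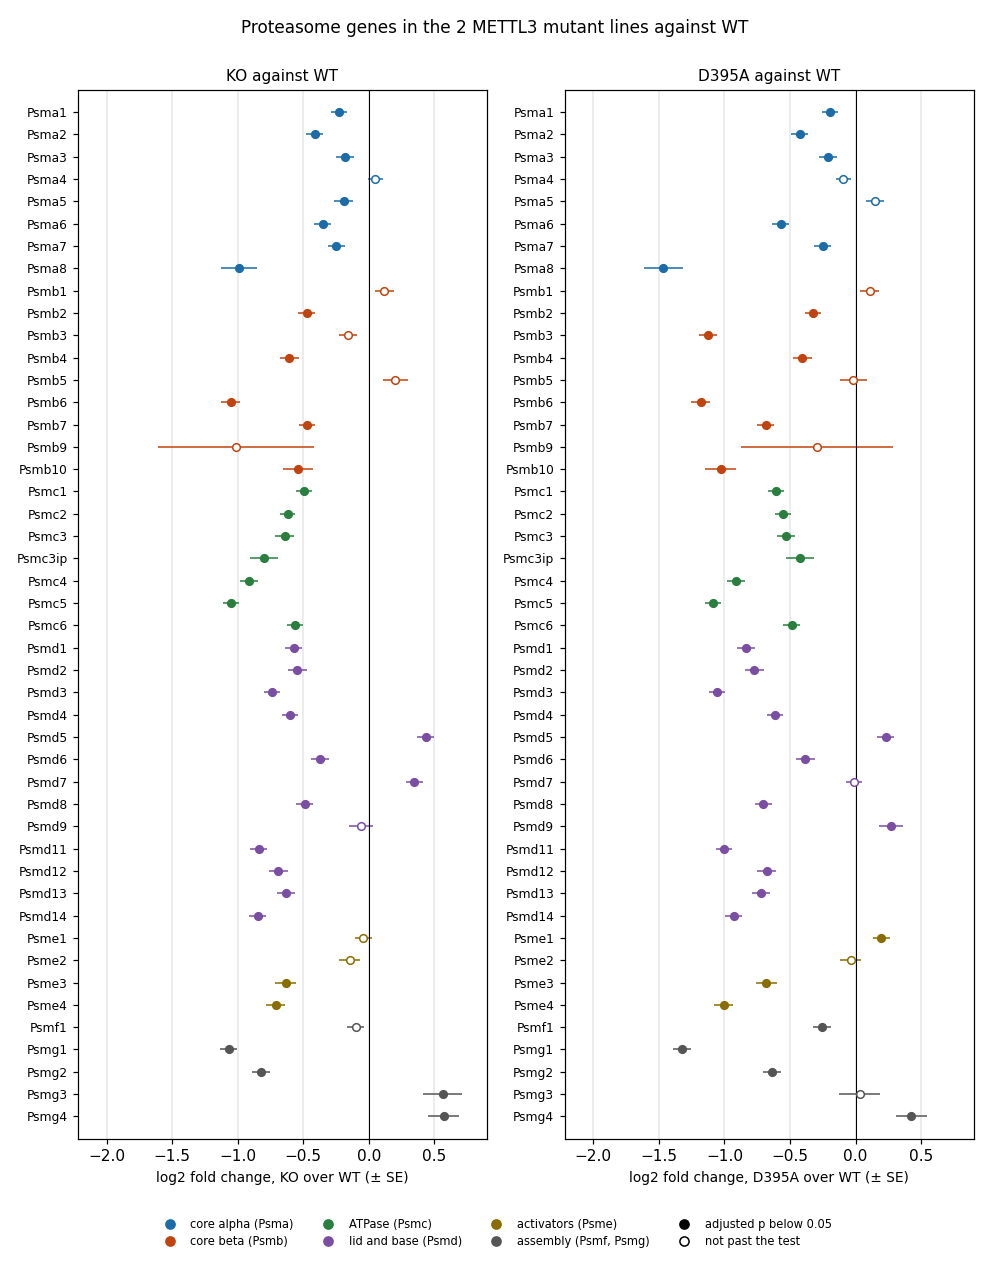
Log2 fold change of each of the 46 tested proteasome genes, KO over WT on the left and D395A over WT on the right, with bars of 1 SE. Filled points have an adjusted p below 0.05; 33 points lie filled below 0 for KO and 34 for D395A, and 4 lie filled above 0 in each panel.

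The alpha subunits form the outer rings of the core and the gate through which substrates enter. Of the 8 genes, 7 were called lower in KO (87.5%, against 32.6% of all genes) and 6 in D395A (75%, against 34.0%), and 0 were called higher in either line. The changes of the 7 constitutive genes were small, from -0.41 to 0.05 on the log2 scale in KO and from -0.57 to 0.15 in D395A. Psma2 had 75.2 and 76.5 CPM in KO, 79.6 and 71.2 CPM in D395A, and 100.2 and 102 CPM in WT. Both edited lines lay below WT, with log2 fold changes of -0.41 ± 0.07 (SE of the fit, 2 libraries a group) in KO and -0.43 ± 0.07 in D395A. Psma6, an alpha subunit whose gene lies on chromosome 12, had 79.8 and 85.95 CPM in KO, 72.6 and 69.8 CPM in D395A, and 109 and 102 CPM in WT. It was lower in KO (-0.35 ± 0.06) and lower still in D395A (-0.57 ± 0.07), without overlap of the libraries of the 3 groups. Psma5 had 66.9 and 68.5 CPM in KO, 89.4 and 82.8 CPM in D395A, and 81.4 and 73.3 CPM in WT. It was called lower in KO (-0.19 ± 0.07) but not in D395A (0.15 ± 0.07, edgeR adjusted p = 0.069), where both libraries lay above both WT libraries. Psma1, Psma3 and Psma7 were called lower in both lines by 0.18 to 0.25. These are the least stable calls among the genes that fell: in KO, the call of Psma3 was lost without KO replicate 1 or either WT library, that of Psma1 without KO replicate 1 or WT replicate 2, that of Psma5 without either KO library or WT replicate 1, and that of Psma7 without WT replicate 1. In D395A, the call of Psma3 was lost without D395A replicate 2 or either WT library, that of Psma1 without either WT library, and that of Psma7 without WT replicate 1. Psma4 was called in neither line (0.05 in KO, -0.09 in D395A).

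Psma8 encodes the alpha subunit of the germ cell proteasome, in which it takes the place of Psma7. It fell furthest of the alpha genes: it had 9.16 and 8.59 CPM in KO, 7.75 and 5.24 CPM in D395A, and 17.9 and 17.3 CPM in WT. All libraries of the edited lines lay below WT, with log2 fold changes of -0.99 ± 0.14 in KO and -1.47 ± 0.15 in D395A. Per kilobase of exon, Psma8 made up 14.5% and 13.9% of the sum of Psma8 and Psma7 in KO, 12.2% and 9.30% in D395A, and 21.6% and 21.8% in WT. The germ cell form was thus a minor share in every library, and the smallest share was in D395A.

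The 3 constitutive cutting subunits did not share a call. Psmb6 (the caspase-like site) fell to about 0.48 times the WT level in KO and 0.44 times in D395A, Psmb7 (the trypsin-like site) fell by less, and Psmb5 (the chymotrypsin-like site) was called in neither line. Psmb6, on chromosome 11 from 70525367 to 70527858 on the plus strand, had 108 and 113 CPM in KO, 108 and 95.02 CPM in D395A, and 223 and 235 CPM in WT. Every library of the edited lines was far below both WT libraries, and the log2 fold changes were -1.05 ± 0.07 in KO (edgeR adjusted p = 5.1e-08) and -1.18 ± 0.07 in D395A (edgeR adjusted p = 1.7e-08). Psmb5, on chromosome 14 from 54614119 to 54618022 on the minus strand, had 31.3 and 31.8 CPM in KO, 30.7 and 24.01 CPM in D395A, and 26.4 and 28.4 CPM in WT. The 2 KO libraries were above both WT libraries and the D395A libraries lay on either side of them, and neither difference passed the test (0.20 ± 0.10, edgeR adjusted p = 0.084, and -0.02 ± 0.10, edgeR adjusted p = 0.89). In the annotation, 12.1% of the exon bases of Psmb5 are shared with the microRNA gene Mir686 on the same strand. Psmb7 had 125 and 128 CPM in KO, 113 and 105 CPM in D395A, and 180.2 and 171 CPM in WT. Its libraries ordered D395A below KO below WT without overlap, with log2 fold changes of -0.47 ± 0.06 in KO and -0.68 ± 0.06 in D395A. Exons of Nek6 on the opposite strand overlap 11.8% of the exon bases of Psmb7. RefSeq also lists pseudogenes named after Psma5, Psmb5, Psmb6 and Psmb7, and reads shared with such copies make the levels of these genes uncertain.

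**Figure D3:**
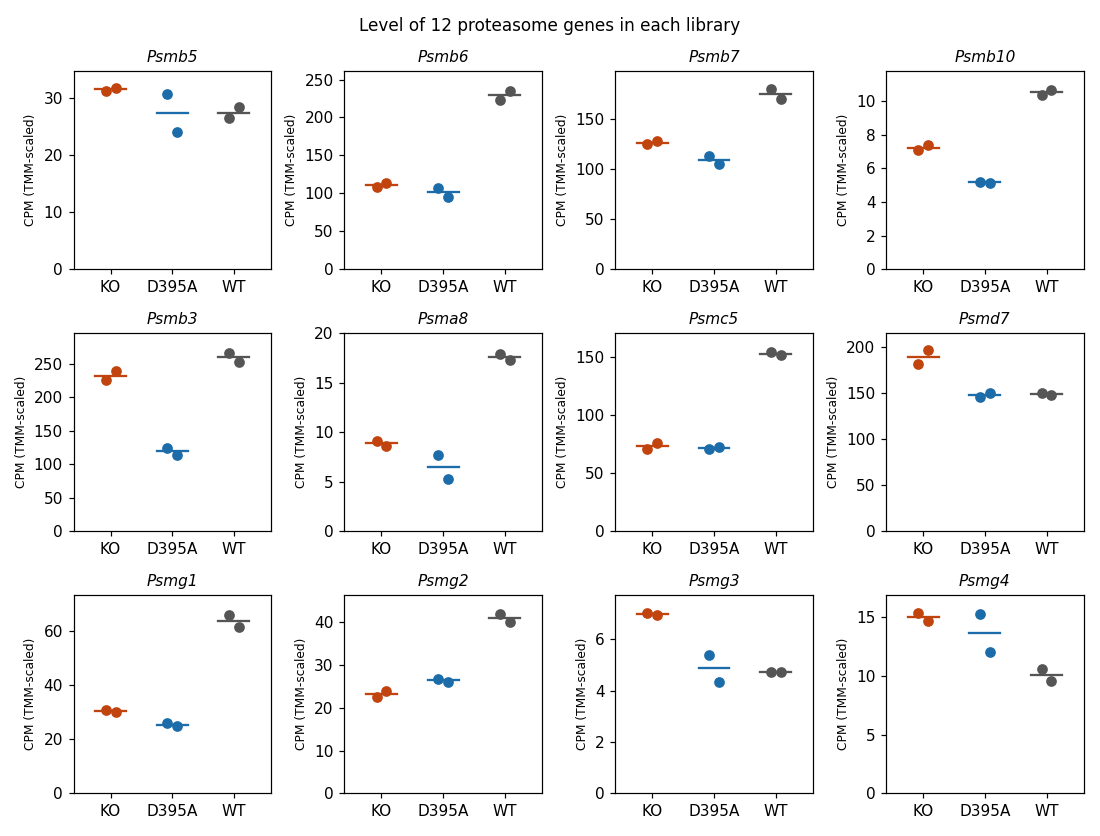
Level of 12 proteasome genes in each library, in CPM from 0, with KO, D395A and WT from left to right in each panel. Points are libraries and lines are means of 2; Psmb5 overlaps between D395A and WT, Psmb3 is lowest in D395A, and Psmg3 and Psmg4 are higher in KO than in WT.

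The start regions of Psmb6, which fell in both lines, and Psmb5, which was called in neither, are shown for comparison, with the core of the antioxidant response element (the letters TGACNNNGC, the kind of site that NRF1 binds) in capitals. Each runs 5′ to 3′ from 250 bases before to 50 bases after the RefSeq start (GRCm38.p6).
Psmb6, chr11:70525107-70525406, plus strand: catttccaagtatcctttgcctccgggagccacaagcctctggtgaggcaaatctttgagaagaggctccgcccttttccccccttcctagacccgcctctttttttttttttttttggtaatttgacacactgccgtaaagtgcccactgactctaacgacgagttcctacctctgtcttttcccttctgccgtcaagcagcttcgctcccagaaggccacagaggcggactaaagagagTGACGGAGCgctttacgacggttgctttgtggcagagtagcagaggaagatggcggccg
Psmb5, chr14:54617946-54618245, minus strand: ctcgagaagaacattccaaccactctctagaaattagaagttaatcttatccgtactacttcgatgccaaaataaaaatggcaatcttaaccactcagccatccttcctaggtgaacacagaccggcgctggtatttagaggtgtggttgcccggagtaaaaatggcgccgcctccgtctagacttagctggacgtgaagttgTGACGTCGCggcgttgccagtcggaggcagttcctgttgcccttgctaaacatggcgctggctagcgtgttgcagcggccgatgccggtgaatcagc
The motif starts at position -9 in Psmb6 and -47 in Psmb5, counting the first transcribed base as 0, so both windows hold these letters.

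The structural beta subunits were also uneven. Psmb3 differed most between the edited lines of all 46 genes. It had 226 and 239 CPM in KO, 124 and 114 CPM in D395A, and 266 and 253 CPM in WT. Both D395A libraries were far below all others, while the KO libraries were just below WT. The log2 fold change was -1.13 ± 0.07 in D395A (edgeR adjusted p = 1.9e-08) and -0.16 ± 0.07 in KO (edgeR adjusted p = 0.051), where the test was not passed. Psmb3 lies on chromosome 11, from 97703399 to 97713500 on the plus strand. Psmb4, whose product ends the assembly of a beta ring, had 86.5 and 90.01 CPM in KO, 109 and 94.5 CPM in D395A, and 137 and 132 CPM in WT. It was lower in KO by 0.61 ± 0.07 and in D395A by 0.41 ± 0.07 on the log2 scale. Psmb2 was called lower in both lines, at -0.48 in KO and -0.32 in D395A. Psmb1 was called in neither, at 0.12 and 0.11.

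The start region of Psmb3 is shown because it holds the other motif searched, the CCAAT box bound by NF-Y, in capitals.
Psmb3, chr11:97703184-97703483, plus strand: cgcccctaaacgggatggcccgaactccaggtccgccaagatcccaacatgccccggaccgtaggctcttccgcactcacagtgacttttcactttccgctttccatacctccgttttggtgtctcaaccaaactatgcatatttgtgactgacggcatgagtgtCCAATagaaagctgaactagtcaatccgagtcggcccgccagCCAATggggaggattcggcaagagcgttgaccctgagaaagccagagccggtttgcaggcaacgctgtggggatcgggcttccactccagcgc
CCAAT starts at positions -85 and -43, and TGACNNNGC is not among these letters on either strand.

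The interferon-inducible cutting subunits, which replace the constitutive ones in the immunoproteasome, were scarce. Psmb10, the partner of Psmb7, had 7.08 and 7.38 CPM in KO, 5.20 and 5.13 CPM in D395A, and 10.4 and 10.7 CPM in WT. Its libraries ordered D395A below KO below WT without overlap (-0.54 ± 0.11 in KO and -1.03 ± 0.12 in D395A). Per kilobase, Psmb10 made up 10.2% and 10.4% of the sum of Psmb10 and Psmb7 in KO, 8.43% and 8.90% in D395A, and 10.4% and 11.1% in WT. Psmb9, the partner of Psmb6, had 20 and 8 counts in KO, 11 and 30 in D395A, and 29 and 33 in WT. These are too few to show a difference: the log2 fold changes were -1.01 ± 0.59 in KO (edgeR adjusted p = 0.15) and -0.29 ± 0.58 in D395A (edgeR adjusted p = 0.67). Exons of Tap1, which rose in both lines, overlap 5.79% of its exon bases on the opposite strand. Psmb8, the partner of Psmb5, had 3 and 0 counts in KO, 0 and 2 in D395A, and 0 in both WT libraries. Psmb11, the thymic subunit, had 2 and 0 counts in KO, 0 and 2 in D395A, and 0 and 9 in WT. Neither was tested, and counts this low do not show whether the genes were on.

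In the ATPase ring, all 6 subunit genes were called lower in both lines, where 32.6% of all genes in KO and 34.0% in D395A were. Their log2 fold changes ran from -1.05 to -0.49 in KO and from -1.09 to -0.49 in D395A. For these genes no library of an edited line reached the level of a WT library. How often this holds over all genes was not counted. Psmc5, on chromosome 11, had 71.01 and 76.3 CPM in KO, 71.0 and 72.8 CPM in D395A, and 154 and 152 CPM in WT. The edited lines lay side by side at 0.48 times WT in KO and 0.47 times in D395A, with log2 fold changes of -1.05 ± 0.06 in KO (edgeR adjusted p = 1.5e-08) and -1.09 ± 0.06 in D395A (edgeR adjusted p = 1.0e-08). Psmc4, on chromosome 7, had 61.8 and 62.5 CPM in KO, 61.4 and 63.1 CPM in D395A, and 125 and 109.6 CPM in WT. The edited lines were close to each other and well below WT (-0.92 ± 0.07 in KO and -0.91 ± 0.07 in D395A). Psmc1, which with Psmc3ip had the smallest p between the lines in this class, had 88.3 and 90.99 CPM in KO, 84.8 and 80.9 CPM in D395A, and 130.0 and 122 CPM in WT. It was lower by 0.49 ± 0.06 in KO and by 0.61 ± 0.06 in D395A on the log2 scale. Psmc2, Psmc3 and Psmc6 were lower by 0.56 to 0.64 in KO and by 0.49 to 0.55 in D395A. Psmc3ip, the recombination partner, had 12.7 and 10.2 CPM in KO, 15.8 and 14.2 CPM in D395A, and 20.4 and 19.5 CPM in WT. It too was called lower in both lines (-0.80 ± 0.11 in KO and -0.42 ± 0.11 in D395A), though 21.2% of its exon bases overlap the gene Mlx on the opposite strand.

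Of the 13 Psmd genes tested, 10 were called lower in each line (76.9%, against 32.6% of all genes in KO and 34.0% in D395A), and the lid and the base scaffold fell together. The lid holds the deubiquitinase PSMD14 and a set of scaffold proteins around it. Psmd14 had 68.2 and 74.6 CPM in KO, 67.4 and 67.6 CPM in D395A, and 131 and 126 CPM in WT. Both edited lines lay below WT, with log2 fold changes of -0.85 ± 0.06 in KO and -0.93 ± 0.06 in D395A. Psmd11, a lid scaffold whose human form is known to set the level of assembled proteasome in pluripotent stem cells, had 147 and 154 CPM in KO, 131 and 137 CPM in D395A, and 275 and 263 CPM in WT. It was lower by 0.84 ± 0.06 in KO and by 1.00 ± 0.06 in D395A on the log2 scale. Psmd3, another lid scaffold, had 186 and 190.0 CPM in KO, 152 and 149.9 CPM in D395A, and 317 and 312 CPM in WT. The groups did not overlap, with D395A lowest (-0.74 ± 0.06 in KO and -1.06 ± 0.06 in D395A). The other lid genes Psmd6, Psmd8, Psmd12 and Psmd13 were lower by 0.37 to 0.69 in KO and by 0.38 to 0.72 in D395A. In the base, the large scaffolds Psmd1 and Psmd2 and the ubiquitin receptor Psmd4 were lower by 0.54 to 0.60 in KO and by 0.61 to 0.84 in D395A.

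Of the lid genes of this series, Psmd7 went the other way. Psmd7, the structural partner of the deubiquitinase, had 182 and 197 CPM in KO, 145 and 149.8 CPM in D395A, and 149.9 and 148 CPM in WT. KO lay above both other groups, with a log2 fold change over WT of 0.35 ± 0.06 (edgeR adjusted p = 3.7e-04), and the D395A libraries overlapped WT (-0.01 ± 0.06). It lies on chromosome 8, whose median gene was lower in KO. The base chaperones, which hold the ATPase modules during assembly and then leave, were not called lower in either line. Psmd5 had 99.9 and 108 CPM in KO, 91.9 and 88.9 CPM in D395A, and 74.8 and 79.4 CPM in WT. Both edited lines lay above WT (0.43 ± 0.07 in KO and 0.23 ± 0.07 in D395A), and the D395A call was lost without WT replicate 1. Psmd9 had 13.3 and 12.4 CPM in KO, 16.7 and 15.7 CPM in D395A, and 13.6 and 13.3 CPM in WT. It was called higher in D395A (0.27 ± 0.09) and not in KO (-0.06 ± 0.09, edgeR adjusted p = 0.58). The D395A call was lost with DESeq2 and without D395A replicate 1 or either WT library, and 25.5% of the exon bases of Psmd9 overlap Gm26745 on the opposite strand. With factors computed without chromosomes 8, 11 and Y, neither Psmd5 nor Psmd9 was called in D395A. Psmd10, the chaperone also known as gankyrin, was listed at 0 in all 6 libraries. Altogether 4880 of the 24984 rows (19.5%) were at 0 in every library, among them Nfya and Hspa4l of the lists below. Psmd10 is known to be broadly used, so the listed 0 is not read as a level.

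The activators split by kind, and the tested genes of each kind lie on a different chromosome. Of the 4 tested, 2 were called lower in each line (50%, against 32.6% of all genes in KO and 34.0% in D395A). In KO 0 were called higher (against 33.6%), and in D395A 1 was (25%, against 36.3%). Psme3 (PA28 gamma) and Psme4 (PA200), which cap the core in the nucleus, fell in both lines, while Psme1 and Psme2 (PA28 alpha and beta, known as interferon-inducible) were called lower in neither. Psme4 had 304 and 318 CPM in KO, 238 and 268 CPM in D395A, and 514 and 504 CPM in WT. The edited lines were far below WT and D395A was lowest, with log2 fold changes of -0.71 ± 0.07 in KO and -1.01 ± 0.07 in D395A. Psme3 had 181 and 206 CPM in KO, 176 and 198 CPM in D395A, and 308 and 293 CPM in WT. It was lower by 0.63 ± 0.08 in KO and by 0.68 ± 0.08 in D395A on the log2 scale, and the edited lines overlapped each other. Both genes lie on chromosome 11, as does Psme2b, a single-exon near copy of Psme2 that was listed at 0 in every library and is likewise not read as a level. Psme1 had 48.2 and 49.01 CPM in KO, 59.2 and 55.6 CPM in D395A, and 50.6 and 49.3 CPM in WT. It was called higher in D395A (0.20 ± 0.06) but not in KO (-0.04 ± 0.06), and the D395A call was lost without D395A replicate 1, without either WT library, and with factors computed without chromosomes 8, 11 and Y. Psme2 was called in neither line (-0.15 in KO, -0.04 in D395A). Psme1 and Psme2 lie on chromosome 14. Set against the median gene of its chromosome, Psme3 was at -0.22 in KO and -0.19 in D395A. On the same scale Psme2 was at -0.24 and -0.22, Psme4 at -0.29 and -0.52, and Psme1 at -0.13 and 0.01. Psme3 thus lay no lower than Psme2 on this scale. The part of the chromosome in the split was not tested.

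The assembly genes were divided. PSMG1 and PSMG2 work as a pair that starts the alpha ring, and PSMG3 and PSMG4 as another pair that helps to complete it. The genes of the first pair fell in both lines and those of the second were higher in KO. Psmg1, on chromosome 16 from 95979933 to 95990960 on the minus strand, had 30.7 and 29.9 CPM in KO, 25.9 and 24.9 CPM in D395A, and 65.7 and 61.5 CPM in WT. All libraries of the edited lines were below both WT libraries, and this was the largest fall of any proteasome gene in KO (-1.07 ± 0.07, edgeR adjusted p = 2.5e-08); in D395A the log2 fold change was -1.33 ± 0.07. Psmg2 had 22.6 and 23.8 CPM in KO, 26.7 and 26.1 CPM in D395A, and 41.96 and 39.99 CPM in WT. It was lower in both lines without overlap (-0.82 ± 0.07 in KO and -0.64 ± 0.07 in D395A).

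Psmg4, on chromosome 13 from 34162964 to 34178173 on the plus strand, had 15.4 and 14.7 CPM in KO, 15.3 and 12.1 CPM in D395A, and 10.6 and 9.56 CPM in WT. Each edited library lay above both WT libraries (0.57 ± 0.12 in KO and 0.43 ± 0.12 in D395A), but the D395A call was lost without D395A replicate 1 or WT replicate 2. Psmg3 had 7.02 and 6.97 CPM in KO, 5.41 and 4.35 CPM in D395A, and 4.72 and 4.74 CPM in WT. KO was above WT (0.56 ± 0.15, edgeR adjusted p = 0.005), and the D395A libraries lay on either side of WT (0.03 ± 0.16). The gene Gm26938 shares 9.68% of the exon bases of Psmg3 on the same strand. Psmf1, which encodes the core-binding regulator PI31, was called lower in D395A (-0.26) and not in KO (-0.10).

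The start regions of Psmg1, which fell, and Psmg4, which rose, are printed as the pair of assembly genes with opposite changes. Neither motif was found in them, so no letters are in capitals.
Psmg1, chr16:95990911-95991210, minus strand: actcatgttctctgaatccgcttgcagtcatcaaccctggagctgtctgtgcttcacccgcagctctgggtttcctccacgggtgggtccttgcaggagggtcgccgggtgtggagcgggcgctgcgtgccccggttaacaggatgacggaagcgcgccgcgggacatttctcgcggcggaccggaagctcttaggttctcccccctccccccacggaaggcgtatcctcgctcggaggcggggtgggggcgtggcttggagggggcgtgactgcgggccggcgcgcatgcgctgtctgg
Psmg4, chr13:34162714-34163013, plus strand: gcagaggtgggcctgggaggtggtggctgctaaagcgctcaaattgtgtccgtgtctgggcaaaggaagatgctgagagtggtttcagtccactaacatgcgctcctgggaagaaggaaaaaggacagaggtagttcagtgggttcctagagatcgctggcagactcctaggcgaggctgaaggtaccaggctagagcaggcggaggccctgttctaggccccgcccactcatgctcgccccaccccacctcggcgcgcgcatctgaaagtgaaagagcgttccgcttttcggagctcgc
Over the family, a RefSeq start region of 300 bases was at hand for 42 of the 50 genes. TGACNNNGC was found on either strand in 6 of them (14.3%), against 14.0% of all 27025 genes with a start region, and CCAAT in 15 (35.7%), against 41.1%. The motifs were counted apart, and no printed region holds both. TGACNNNGC was found in Psmb5, Psmb6, Psmc6, Psmd9, Psmd12 and Psme4. Among proteasome genes called lower in KO, 4 of 27 with a start region held TGACNNNGC (14.8%) and 11 held CCAAT (40.7%). Of all 12071 tested genes with a start region, 16.5% held TGACNNNGC and 42.8% held CCAAT.

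The direct comparison of the edited lines shows where they differ. Of the 46 genes, 14 were called lower in D395A than in KO (30.4%, where 23.8% of all genes were, and 50.4% were called in either direction), 5 were called higher (10.9%, against 26.5%) and 27 in neither direction. The median log2 fold change was -0.07, against 0.04 over all genes. Psmb3 stood out at -0.96 ± 0.07 (edgeR adjusted p = 1.6e-07). The next by size among called genes were Psmg3 (-0.53 ± 0.15), Psmb10 (-0.49 ± 0.12) and Psma8 (-0.48 ± 0.15). In the Psmd class, 6 genes were lower in D395A, among them Psmd7 (-0.36 ± 0.06) and Psmd3 (-0.32 ± 0.06), with Psmd1, Psmd2, Psmd5 and Psmd8 between -0.26 and -0.20. Psmb7, Psma6, Psme4 and Psmg1 were lower by 0.21 to 0.30. The 5 called higher in D395A were Psmc3ip (0.38 ± 0.11), Psma5 (0.34 ± 0.07), Psmd9 (0.33 ± 0.09), Psme1 (0.24 ± 0.06) and Psmb4 (0.20 ± 0.07). Of the 6 ATPase subunits, 0 were called between the lines, and their log2 fold changes ran from -0.12 to 0.11, with SEs of 0.06 to 0.07.

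With 1 library left out, 11 to 17 of these 19 calls were kept, against 34 to 37 of 37 for KO over WT and 32 to 38 of 38 for D395A over WT. Without KO replicate 2, the calls of Psma6, Psmb4, Psmb7, Psmc3ip, Psmd2, Psmd5, Psmd8 and Psmd9 were lost and 11 of the 19 were kept. Without D395A replicate 2, those of Psma6, Psma8, Psmd5, Psmg1 and Psmg3 were lost. The call of Psmb4 was also lost without KO replicate 1, D395A replicate 1 or either WT library, that of Psme1 without KO replicate 1, that of Psmc3ip without D395A replicate 1, and that of Psmd2 without either WT library. In each comparison with WT, all calls were kept only where the library left out belonged to the group not compared. DESeq2 did not call Psma8, Psmb4 and Psmd9 between the lines.

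**Figure D4:**
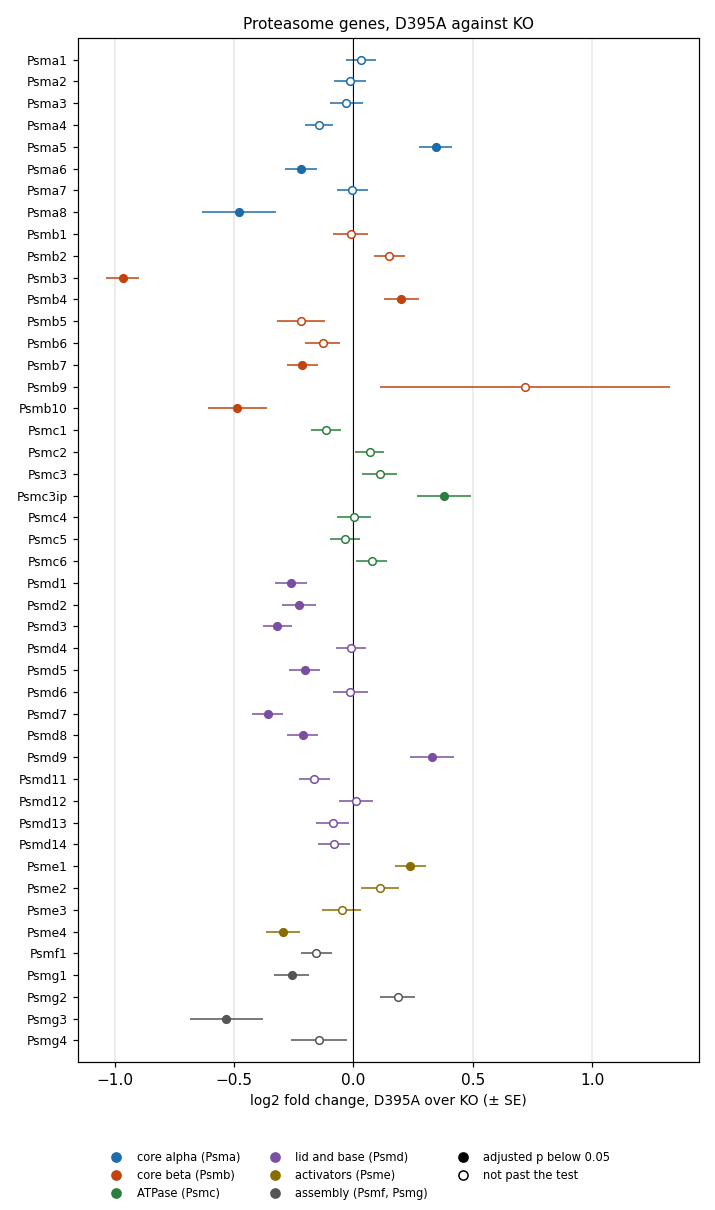
Log2 fold change of each tested proteasome gene, D395A over KO, with bars of 1 SE. Filled points have an adjusted p below 0.05; 14 are below 0, with Psmb3 farthest at -0.96, and 5 are above 0, while the 6 ATPase subunit genes are all open and near 0.

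Levels of different genes can be set side by side per kilobase of exon, with a limit. The length counts all annotated exons of a gene merged, such as 899 bases in Psmb5 and 5031 in Psmc2. It may be longer than the RNA made. The order of the genes and their spread depend on these lengths, as do the shares given above for Psma8 and Psmb10. The comparison of 1 gene between groups does not. Over the 31 constitutive core, ATPase, base and lid subunits, the median level was 37.2 CPM per kilobase in KO, 37.0 in D395A and 54.2 in WT. Their products are used in equal numbers in a particle with a cap at each end, and their RNA levels were spread: the highest was 6.91 times the lowest in KO (Psmb3 against Psmc2), 5.47 times in D395A (Psmb2 against Psmc2) and 5.65 times in WT (Psmb6 against Psmd6). Psmb6 had the highest level of the 31 in WT, at 122 CPM per kilobase, against 59.0 in KO and 54.1 in D395A. Psmb3 was highest in KO, at 101 CPM per kilobase, and Psmb2 in D395A, at 84.0. In this order, 12 of the 30 pairs of neighbours in KO, 20 in D395A and 14 in WT had libraries that overlapped, so their order cannot be read. Psmb10, Psma8, Psmd9, Psmf1 and Psmg3, as well as Psmb9, lay below 10 CPM per kilobase in every group.

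**Figure D5:**
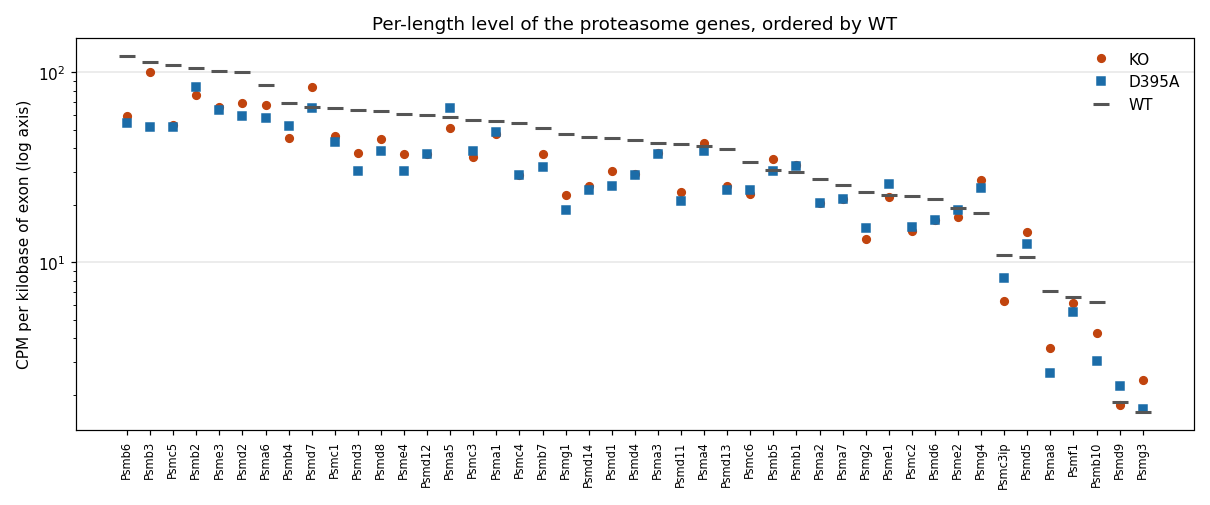
Level of 45 proteasome genes per kilobase of exon, as means of 2 libraries on a log axis, ordered from the highest to the lowest in WT. Circles are KO, squares D395A and dashes WT; most circles and squares lie below the dash of their gene, and Psmb5, Psma4, Psmb1, Psmd5, Psmd7, Psmg3 and Psmg4 are those with a circle above it. Genes below 1 CPM per kilobase in WT are not drawn.

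Position in the genome touches these counts, since 11 tested proteasome genes lie on chromosomes 8 and 11. Of those, 9 were called lower in KO and 10 in D395A, with median log2 fold changes of -0.71 and -1.01. Of all 2117 genes tested on these chromosomes, 54.9% were called lower in KO and 55.6% in D395A, with medians of -0.44 and -0.44. Of the 35 tested genes elsewhere, 24 were called lower (68.6%, against 32.6% of all genes) and 3 higher (8.57%, against 33.6%) in KO (median -0.47). In D395A, 24 were lower (68.6%, against 34.0%) and 4 higher (11.4%, against 36.3%), with a median of -0.41. The shares of all genes include chromosomes 8 and 11, where a larger share was called lower. Set against the median gene of its own chromosome, 39 of the 46 genes lay below it in KO and 38 in D395A, with median differences of -0.40 and -0.53 on the log2 scale. Except for Psmb3, the tested genes of chromosome 11 lay closer to 0 on this scale in KO. Psmb6 was at -0.64, Psmc5 at -0.64, Psmd12 at -0.27 and Psme3 at -0.22, while Psmb3 went from -0.16 to 0.26. In D395A, Psmb6 was at -0.69, Psmc5 at -0.60, Psmb3 at -0.64, and Psmd12 and Psme3 at -0.19 and -0.19. On chromosome 8, Psmb10 was at -0.07 in KO and Psmd7 at 0.82. Psmg1 and Psmc4, on chromosomes 16 and 7, were at -1.10 and -1.05 in KO. These differences from a chromosome's median have no test. By definition, as many tested genes of a chromosome lie below its median as above it. The 9 tested proteasome genes of chromosome 11 share 1 median, so their differences from it are not independent.

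The partners of the proteasome outside the naming series were mixed. Of 19 partners and substrate shuttles, 11 were called lower (57.9%, against 32.6% of all genes) and 4 higher (21.1%, against 33.6%) in KO. In D395A, 10 were called lower (52.6%, against 34.0%) and 5 higher (26.3%, against 36.3%). The medians were -0.27 in KO and -0.32 in D395A. Ecpas and Akirin2 are counted both there and among the assembly factors below. Sem1, which encodes the smallest lid subunit, had 41.5 and 39.1 CPM in KO, 66.99 and 52.5 CPM in D395A, and 25.6 and 25.7 CPM in WT. Unlike most lid genes it was higher in both lines (0.65 ± 0.10 in KO and 1.21 ± 0.10 in D395A). The shuttle Ubqln1 was lower in both lines, at -0.59 ± 0.07 in KO and -0.55 ± 0.07 in D395A. Ubqln2 fell in KO by 0.62 ± 0.06 and was higher in D395A by 0.32 ± 0.06, with a D395A over KO difference of 0.94 ± 0.06. Fbxo7, which binds PI31, was lower in both lines (-0.50 and -0.81). Of 3 assembly factors outside the series, Pomp, the chaperone of the beta ring, was lower in both lines (-0.50 and -0.55), Ecpas, a scaffold of the assembled particle, was higher (0.49 and 0.58), and Akirin2 was called in neither.

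Among 14 tested regulators of proteasome genes, 8 were called lower (57.1%, against 32.6% of all genes) and 4 higher (28.6%, against 33.6%) in KO. In D395A, 5 were called lower (35.7%, against 34.0%) and 6 higher (42.9%, against 36.3%), both shares near those of all genes. The list also holds the gene Nrf1, whose product is not the factor called NRF1 here. Nrf1 is among those called lower in KO (-0.20) and was not called in D395A (0.05). Nfe2l1, which encodes NRF1, had 280.5 and 287 CPM in KO, 198 and 221 CPM in D395A, and 525 and 519 CPM in WT. It was well below WT in both lines (-0.88 ± 0.07 in KO and -1.32 ± 0.07 in D395A); it lies on chromosome 11. Nfe2l2, which encodes the related factor NRF2, had 221 and 228 CPM in KO, 228 and 252 CPM in D395A, and 128 and 125 CPM in WT. It was higher in both, at 0.83 ± 0.07 and 0.92 ± 0.07, and so was Keap1, whose product marks NRF2 for degradation, at 1.29 ± 0.07 and 1.17 ± 0.07. Of 11 antioxidant genes known as NRF2 targets, 4 were called lower (36.4%, against 32.6% of all genes) and 7 higher (63.6%, against 33.6%) in KO, and 2 lower (18.2%, against 34.0%) and 5 higher (45.5%, against 36.3%) in D395A. They did not move one way: Srxn1 was higher (1.45 in KO and 1.17 in D395A) and so was Gclc (0.47 and 0.69), Hmox1 was lower (-1.73 and -1.05), and Gsr was lower in KO (-0.93) and not called in D395A (0.11).

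Ubb, which encodes polyubiquitin, had 495 and 506 CPM in KO, 539.5 and 487 CPM in D395A, and 788 and 774 CPM in WT. Both edited lines lay below WT, at -0.64 ± 0.07 in KO and -0.61 ± 0.07 in D395A. Of the 14 genes of ubiquitin supply and of the segregase that extracts substrates, 8 were called lower in each line (57.1%, against 32.6% of all genes in KO and 34.0% in D395A), and 1 was called higher in KO (7.14%, against 33.6%) and 2 in D395A (14.3%, against 36.3%). Among those lower in both was the cofactor Ubxn1 (-0.56 and -0.64); the cofactor Faf1 was called lower in D395A (-0.58) and not in KO (-0.14).

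Other large protein machines were counted in the same way. Of the 10 genes of the COP9 signalosome, which is built like the lid, 5 were called lower (50%, against 32.6% of all genes) and 3 higher (30%, against 33.6%) in KO, and 7 lower (70%, against 34.0%) and 1 higher (10%, against 36.3%) in D395A. Gps1 and Cops3 fell in both lines (-0.72 and -0.73, and -0.85 and -0.62), Cops9 rose in both (1.09 and 0.97), and Cops2 rose in KO (0.52). Of the 8 genes of the CCT chaperonin, which folds actin and tubulin, 7 were called lower in each line (87.5%, against 32.6% of all genes in KO and 34.0% in D395A) and 0 higher, with medians of -0.58 in KO and -0.63 in D395A. Cct7 (-1.11 and -0.84), Cct4 (-0.98 and -1.11), Cct2 (-0.88 and -0.37) and Cct8 (-0.62 and -0.78) are examples. Heat shock genes were mixed, with 7 of 14 lower (50%, against 32.6% of all genes) and 5 higher (35.7%, against 33.6%) in KO, and 5 lower (35.7%, against 34.0%) and 5 higher (35.7%, against 36.3%) in D395A. Hspa8 (-0.99 and -0.45), Hspb1 (-0.71 and -0.94) and Hsp90aa1 (-0.61 and -0.55) were lower, while Hsf1, the factor that turns on the response, was higher (0.80 and 0.83).

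Genes of antigen presentation on MHC class I, which uses peptides cut by the proteasome, were mixed. Of 13 genes, 3 were called lower (23.1%, against 32.6% of all genes) and 6 higher (46.2%, against 33.6%) in KO, and 4 lower (30.8%, against 34.0%) and 7 higher (53.8%, against 36.3%) in D395A. Tap1, the peptide transporter, had 8.59 and 11.6 CPM in KO, 18.5 and 20.2 CPM in D395A, and 2.75 and 3.06 CPM in WT. Every library of the edited lines was above both WT libraries (1.80 ± 0.16 in KO and 2.74 ± 0.15 in D395A). B2m was also higher (1.69 and 1.16), and the chaperone Canx was lower (-0.81 and -0.72). Psmb8 and Psmb9, whose genes lie beside the transporter genes, stayed below 1 CPM in every library.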

How the data were processed

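Gene counts of 6 libraries were used as deposited: per the submitters' processing notes, the authors had trimmed reads with Trimmomatic 0.36, aligned them with STAR 2.7 and made the counts with HTSeq 0.11.2. Neither the strand setting nor the annotation they counted with is given in the sources used here. Without these, reads of a gene and of an overlapping gene on the opposite strand cannot be told apart, and 12 of the 50 proteasome genes have such an overlap (at most 25.5% of exon bases). The summary lines of HTSeq, which held 29.0% to 44.2% of the lines' total, were left out of library sizes and tests.

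Positions and exon lengths came from GENCODE M21 (GRCm38), where 98.35% of the 24984 symbols were found, and start regions from RefSeq (GRCm38.p6). Counts were tested in R 4.3.3 with edgeR 4.0.16: 15663 genes passed filterByExpr, and TMM scaling, estimateDisp, glmQLFit and glmQLFTest were run on all 6 libraries in 1 model with 3 residual degrees of freedom. The model takes 1 spread for all groups, but replicates were not equally close. The chi-square per degree of freedom between the libraries of a group was 6.48 in KO, 11.1 in D395A and 3.19 in WT. The SEs and p-values do not reflect this difference. P-values were adjusted by Benjamini-Hochberg over all genes within each comparison, at a threshold of 0.05. The steps were tested on simulated data with known answers, in which few genes changed, evenly up and down, and all groups had the same spread. In the real libraries a large share of genes differed, so the simulation does not show how the steps perform there. CPM values are counts scaled to a common library size with TMM factors, per kilobase of merged exons where genes are compared with each other. The depth set 1 count at 0.0246 to 0.0426 CPM.

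Every proteasome gene is named. Values in each library are given for Psmb5 to Psmb11, for the 2 genes of each class with the smallest p in each comparison, for those called against the direction of most, and for the 2 with the largest change in each comparison with WT. In each pathway list, up to 3 called genes with the smallest p in each comparison with WT are named, of which some are not reported here. The genes, lists and motifs were chosen with earlier results of these data known. Lists are described by counts and medians, with no test of a list. The symbols AI314180, Paaf1, Shfm1, Tcf11 and Ufd1l in the lists matched no row. Protein sequences were not used here. Alternatives were other scaling factors, filters and groups in the fit, DESeq2 1.42.0, limma-voom 3.58.1, a replicate block, and each library left out in turn.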

Additional observations from a re-analysis of the deposited data

How the results depend on the processing

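Of 2343 values of single proteasome genes under the alternatives, 2233 kept their side of the threshold, 57 lost a call, 53 gained one and 0 reversed a call. The median log2 fold change of the family in KO was -0.571 with TMM factors computed without chromosomes 8, 11 and Y, -0.470 with the stricter filter of at least 100 counts in 2 libraries, -0.471 without the family's genes on those chromosomes, and -0.401 relative to the median of each gene's chromosome, an alternative chosen after seeing the data. In D395A it was -0.622 with those factors, which left 1 gene called higher, and -0.405 without the genes on those chromosomes. Between D395A and KO, DESeq2 and a fit on these 2 groups each called 3 genes higher, and without the genes on chromosomes 8, 11 and Y 9 were lower with a median of -0.013. With 1 library left out, where the lone library is assumed to vary like the other groups, the median ran from -0.534 to -0.468 in KO and from -0.596 to -0.508 in D395A, genes called higher in D395A numbered 1 to 6, and between the lines 9 to 17 were lower and 2 to 6 higher, with a median from -0.126 to -0.017. The causes were not tested. With the replicate number as a block, 33 genes were lower and 4 higher in KO, 34 and 4 in D395A, and 14 and 5 between the lines, as without it. With the numbers of D395A exchanged, chosen after seeing the data, 15 were lower and 5 higher between the lines. The numbers do not pair the libraries: deviations of same-numbered libraries correlated over genes at -0.21 between KO and D395A, 0.01 between KO and WT, and 0.01 between D395A and WT. With 2 libraries a group, a gene not called is not shown to be equal. Psmb8, Psmb9 and Psmb11 had too few counts to compare, and the 0 of Psmd10 and Psme2b in every library is not read as a level.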
